A study of Homo sapiens with 12 samples.

Results

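The genes described are *CIITA*, *CD74* and 8 HLA class II genes (*HLA-DRA*, *HLA-DRB1*, *HLA-DPA1*, *HLA-DPB1*, *HLA-DQA1*, *HLA-DMA*, *HLA-DMB* and *HLA-DOA*), picked by name from the 45416 genes of the expression table. They were followed through 12 RNA-seq libraries of U251, an established human glioblastoma cell line labelled as wild type. The cells had been transfected with a non-targeting siRNA (siNC) or with siPDL1-1 or siPDL1-2, both directed at *PD-L1* (gene symbol *CD274*), and 48 h later were either left unstimulated or given IFNγ at 100 U/ml for 24 h. Each of the 6 groups held 2 libraries, and both siPDL1 groups are compared with the same siNC libraries. siRNA transfection lowers a transcript for a limited time and does not delete the gene.

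MHC class II molecules are pairs of an alpha and a beta chain that carry peptides from endosomes to the cell surface, where CD4+ T cells read them. Dendritic cells, macrophages and B cells make them all the time, whereas most other cells, glioma cells among them, make them after exposure to IFNγ. IFNγ acts through JAK kinases and IRF1 to switch on *CIITA*, a coactivator that does not bind DNA itself but docks on a complex of RFX, CREB and NF-Y proteins at the short upstream elements (the X and Y boxes) of class II and invariant chain promoters.

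Those upstream elements were looked up for the genes described, since they are the stretch on which CIITA docks. RefSeq promoter windows on GRCh38.p14, which run from 250 bases before to 50 bases after a gene's start, were on hand for 8 of the 10 genes (9 windows, because *HLA-DPA1* has 2 starts). *CIITA* and *HLA-DRA* had no entry. The word of 11 bases that most of these genes held with at most 2 mismatches was found in 6 of them, and with N for the letters on which they differed it reads CNAGNNACNGA. This X-like run was searched on both strands together with the Y-box core CCAAT, which reads ATTGG on the other strand. The run came from these windows, so its presence in 6 of the 8 genes is how it was defined; it stood in 3.35% of all 35116 windows. The Y core stood in 7 of the 8 genes and in 34.6% of all windows. In 4 genes the X-like run was followed by the Y core within 30 bases, a pairing found in 49 of all windows (0.14%), those of *HLA-DQB1* and *HLA-DRB5* included. The pairing holds the run taken from these windows, so its presence in the 4 genes is in part how it was defined. The share over all windows is therefore no test. The 6 segments with the X-like run are printed 5′ to 3′ on the gene's own strand, with the X-like run and the paired Y core in capitals.
HLA-DRB1, chr6:32589880-32589939, minus strand: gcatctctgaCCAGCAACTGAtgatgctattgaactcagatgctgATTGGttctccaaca
HLA-DQA1, chr6:32637292-32637352, plus strand: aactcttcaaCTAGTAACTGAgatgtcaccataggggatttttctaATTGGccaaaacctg
HLA-DMA, chr6:32953162-32953222, minus strand: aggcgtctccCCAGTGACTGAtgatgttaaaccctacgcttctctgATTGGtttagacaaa
HLA-DOA, chr6:33009644-33009704, minus strand: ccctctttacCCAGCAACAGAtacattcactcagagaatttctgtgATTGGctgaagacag
HLA-DMB, chr6:32941068-32941128, minus strand: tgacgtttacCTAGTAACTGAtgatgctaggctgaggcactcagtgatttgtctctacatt
HLA-DPA1, chr6:33073700-33073760, minus strand: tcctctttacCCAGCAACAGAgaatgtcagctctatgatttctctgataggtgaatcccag
The distance between the X-like run and the Y core was 24 bases in *HLA-DRB1* and 25 bases in *HLA-DQA1*, *HLA-DMA* and *HLA-DOA*. A match describes letters only and shows no binding.

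The 8 HLA genes lie on chromosome 6 of GRCh38 between positions 32439878 and 33089696, a span of 650 kb. *CIITA* lies on chromosome 16 (10866222 to 10943021, plus strand) and *CD74* on chromosome 5 (150400041 to 150412929, minus strand). Levels are given as normalized CPM, reads scaled to the size of the library, and 1 read was worth between 0.0187 and 0.0586 CPM across libraries of 17101069 to 55657393 reads on genes. A gene was called higher or lower when limma gave a false discovery rate (FDR) below 0.01 over all genes tested and a fold change above 1.5 on the log2 scale of CPM plus 1, a scale that understates the change of genes with low levels. Of the 10 genes, 9 had enough reads to be tested. *HLA-DQA1* did not.

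The cell line was checked against marker genes. The 10 glioma and astrocyte line markers summed to between 5000 and 5920 CPM in every library, led by *VIM* at 3140 to 3970 CPM. Members of the same list were low: *GFAP* read 1.92 to 7.25 CPM, *S100B* 2.40 to 5.92 CPM and *CHI3L1* 1.67 to 3.60 CPM. The sum therefore does not show glial identity. The 15 markers of B cells, dendritic cells, myeloid cells and T cells summed to 1.22 to 2.67 CPM in the unstimulated libraries and to 1.17 to 1.93 CPM after IFNγ. Of those 15, 14 stayed below 1 CPM in all libraries, and *MS4A1* and *CD1C*, markers of B cells and dendritic cells, had no reads at all. The target, *CD274*, stood before IFNγ at 4.602 and 4.91 CPM in siNC cells, at 2.67 and 2.73 CPM with siPDL1-1 and at 3.57 and 3.45 CPM with siPDL1-2. Only siPDL1-1 was called lower there (log2 fold change -0.64, FDR 1.76e-05), while siPDL1-2 gave -0.35 (FDR 0.00183). After IFNγ *CD274* stood at 71.2 and 76.0 CPM in siNC cells, at 60.9 and 66.7 CPM with siPDL1-1 and at 37.5 and 35.0 CPM with siPDL1-2. There only siPDL1-2 was called lower (-1.001, FDR 2.79e-05), while siPDL1-1 gave -0.20 (FDR 0.0604). All values are from whole cultures, in which fewer cells making a transcript and less transcript per cell cannot be told apart.

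IFNγ raised the 9 tested genes of the 10 in all 3 siRNA arms. The 10 genes together summed to between 6.27 and 7.07 CPM in the unstimulated libraries and to between 425 and 506 CPM in the stimulated ones. All 9 tested genes were called higher in siNC cells, where 6.67% of all genes tested were called higher, and the same held with siPDL1-1 (5.58%) and siPDL1-2 (3.62%). Only 5 of them (*CIITA*, *HLA-DRB1*, *HLA-DPA1*, *HLA-DPB1* and *HLA-DMA*) had enough reads in the unstimulated libraries alone. The other 4 (*CD74*, *HLA-DRA*, *HLA-DMB* and *HLA-DOA*) entered the test through their IFNγ libraries and so had to be higher there, which makes the counts and medians over the 9 a description. Their median log2 fold change was 3.91 in siNC cells, 3.97 with siPDL1-1 and 4.17 with siPDL1-2, where the medians over all genes tested were 0.001, -0.016 and -0.015. As plain ratios of mean CPM, with genes absent before IFNγ set at their lower bound, the medians over the 9 genes were 44.9-fold, 36.35-fold and 38.5-fold.

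**Figure D1:**
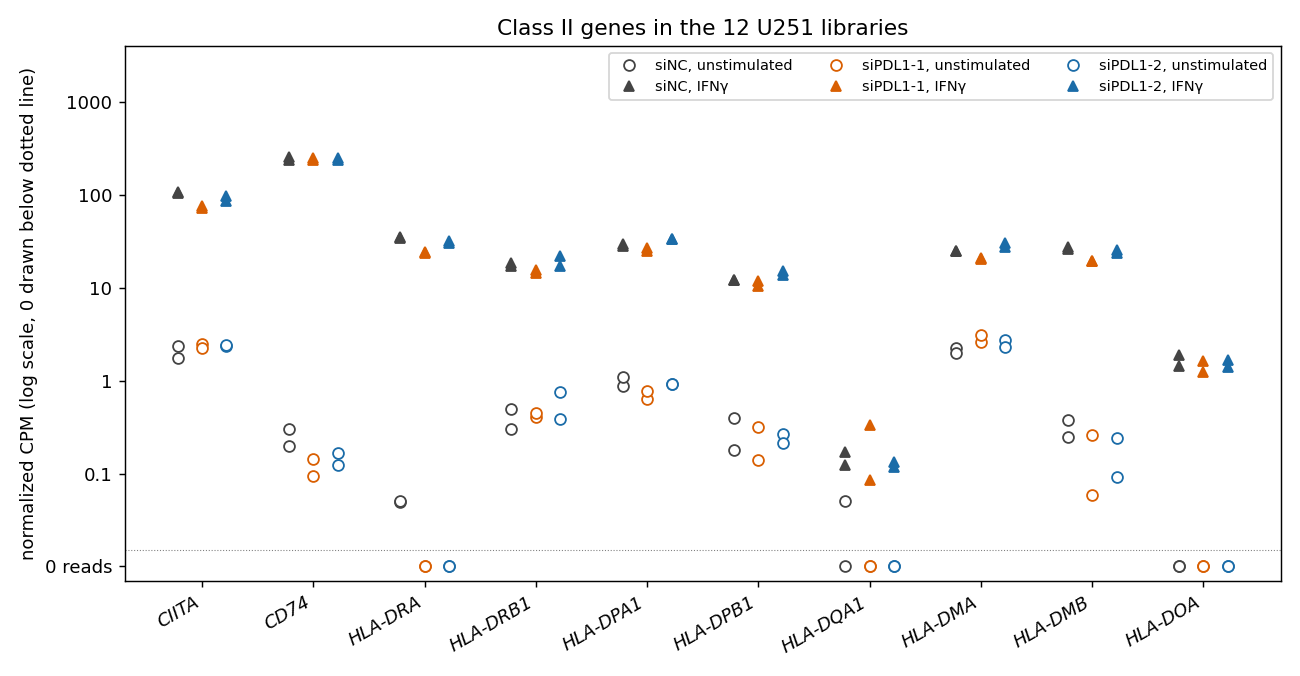
Normalized CPM on a log axis for each of the 10 class II genes (horizontal axis) in each of the 12 libraries, with open circles for unstimulated and filled triangles for IFNγ libraries and 1 colour per siRNA. For all genes but *HLA-DQA1* the triangles lie far above the circles. The lowest triangle is a siPDL1-1 library for all genes but *CD74*, and in *HLA-DOA* and *HLA-DQA1* the groups overlap.

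*CIITA*, the class II coactivator, was present before IFNγ in all 6 unstimulated libraries. It read 1.76 and 2.38 CPM with siNC, 2.49 and 2.24 CPM with siPDL1-1 and 2.35 and 2.41 CPM with siPDL1-2. After IFNγ it reached 108 and 103 CPM with siNC, 76.2 and 72.0 CPM with siPDL1-1 and 96.6 and 86.5 CPM with siPDL1-2. The 3 unstimulated groups overlapped, whereas the 3 stimulated groups did not, with siNC highest and siPDL1-1 lowest. The rise was 51.0-fold, 31.3-fold and 38.5-fold as ratios of means, and 5.13 ± 0.093, 4.48 ± 0.093 and 4.77 ± 0.093 (log2 fold change ± SE) in the fit, with FDR of 1.27e-15, 3.89e-15 and 3.37e-15. *CIITA* shares 13578 bases with *DEXI* on the other strand, which averaged 25.5 CPM, and the strand was not used in counting, so reads from the shared stretch are not separated. *DEXI* itself read 28.3 ± 0.701 CPM (SD, n = 2) with siNC after IFNγ.

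*CD74*, the invariant chain that fills the class II groove and guides the molecule to endosomes, had the largest log2 fold change of the 9 genes in the fit. Before IFNγ it read 0.196 and 0.304 CPM with siNC, 0.145 and 0.0941 CPM with siPDL1-1 and 0.168 and 0.122 CPM with siPDL1-2, from 16, 9 and 11 reads in all. After IFNγ it read 253 and 237 CPM with siNC, 251.2 and 235 CPM with siPDL1-1 and 235 and 248 CPM with siPDL1-2. The 3 stimulated groups of *CD74* overlapped. Because the starting reads were few, the ratios are wide: 981-fold with a 95% counting interval of 566 to 1609 in siNC cells, 2035-fold (1105 to 4588) with siPDL1-1 and 1667-fold (920.5 to 3301) with siPDL1-2. The fit gave log2 fold changes of 7.62, 7.77 and 7.73, each ± 0.076 (SE), with a smallest FDR of 6.46e-19 and a largest of 8.98e-19. *CD74* shares 268 bases with *TCOF1* on the other strand, which averaged 190 CPM, and *CD74* was nonetheless near 0 in the unstimulated libraries.

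*HLA-DRA*, the alpha chain of HLA-DR, had 3 reads in the siNC unstimulated libraries and none in the 4 siPDL1 unstimulated ones, where 3 reads would be worth at most 0.0916 CPM per library. After IFNγ it read 34.1 and 34.7 CPM with siNC, 24.1 and 23.85 CPM with siPDL1-1 and 30.3 and 31.4 CPM with siPDL1-2. The pairs were tight and the 3 stimulated groups did not overlap. The rise in siNC cells was 687-fold with a counting interval of 235 to 3333, and it was at least 274-fold with siPDL1-1 and at least 330.5-fold with siPDL1-2. *HLA-DRB1*, the beta chain that pairs with it, rose from 0.304 to 0.763 CPM over the 6 unstimulated libraries to 18.45 and 17.1 CPM with siNC, 15.6 and 14.4 CPM with siPDL1-1 and 17.2 and 22.01 CPM with siPDL1-2. The siNC and siPDL1-2 values of *HLA-DRB1* overlapped and those of siPDL1-1 lay below both. The rise of *HLA-DRB1* was 44.9-fold, 35.2-fold and 34.2-fold. *HLA-DRB1* has near-identical relatives and differs between people, so reads may be split among copies or lost, and its level is uncertain.

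*HLA-DPA1* and *HLA-DPB1*, the alpha and beta chains of HLA-DP, are neighbours on opposite strands that share 4786 bases. *HLA-DPA1* rose from 0.638 to 1.09 CPM over the unstimulated libraries to 28.4 and 29.4 CPM with siNC, 25.0 and 26.4 CPM with siPDL1-1 and 33.8 and 33.3 CPM with siPDL1-2. *HLA-DPB1* rose from 0.141 to 0.392 CPM to 12.2 and 12.1 CPM with siNC, 10.4 and 11.7 CPM with siPDL1-1 and 13.6 and 15.2 CPM with siPDL1-2. In both DP genes the siPDL1-2 libraries were the highest and the siPDL1-1 libraries the lowest, without overlap between groups. The rise of *HLA-DPA1* was 29.3-fold with siNC, 36.35-fold with siPDL1-1 and 36.7-fold with siPDL1-2, and that of *HLA-DPB1* was 42.6-fold, 48.0-fold and 60.4-fold.

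*HLA-DQA1*, the alpha chain of HLA-DQ, stayed at the edge of detection. It had 2 reads over all unstimulated libraries, and after IFNγ it read 0.169 and 0.125 CPM with siNC, 0.0851 and 0.329 CPM with siPDL1-1 and 0.117 and 0.132 CPM with siPDL1-2, from 15, 10 and 6 reads. The stimulated groups overlapped, and no fold change is given. Its promoter segment carries the same paired elements as those of *HLA-DRB1*, *HLA-DMA* and *HLA-DOA*. *HLA-DQA1* is highly polymorphic, and reads of an allele far from the reference may not map.

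The genes for peptide editing came next in the pathway. *HLA-DMA* and *HLA-DMB* encode the chains of HLA-DM, which removes the invariant chain fragment from the groove and helps stable peptides in. *HLA-DMA* was read in every unstimulated library, at 2.25 and 1.97 CPM with siNC, 2.58 and 3.06 CPM with siPDL1-1 and 2.76 and 2.32 CPM with siPDL1-2. It rose to 24.6 and 24.9 CPM with siNC, 20.9 and 20.2 CPM with siPDL1-1 and 27.4 and 30.3 CPM with siPDL1-2. These stimulated groups did not overlap, and the rise of 11.7-fold, 7.28-fold and 11.4-fold was the smallest ratio among the 9 genes other than the bounds for *HLA-DOA*. *HLA-DMA* overlaps 501 bases of *BRD2*, a chromatin reader gene on the other strand, which averaged 223 CPM, so part of the *HLA-DMA* reads may be *BRD2* reads. *HLA-DMB* rose from 0.058 to 0.380 CPM over the unstimulated libraries to 25.8 and 27.1 CPM with siNC, 19.5 and 19.4 CPM with siPDL1-1 and 23.3 and 25.5 CPM with siPDL1-2. The siPDL1-1 libraries lay below all others, and the siNC and siPDL1-2 pairs did not overlap. Its rise was 84.7-fold, 123-fold and 147.5-fold.

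*HLA-DOA*, the alpha chain of the HLA-DM inhibitor HLA-DO, had no reads in any unstimulated library. After IFNγ it read 1.87 and 1.43 CPM with siNC, 1.62 and 1.22 CPM with siPDL1-1 and 1.41 and 1.69 CPM with siPDL1-2. The stimulated groups overlapped, and the rise was at least 9.75-fold, 14.1-fold and 15.4-fold. In the fit its log2 fold changes were the lowest of the 9 genes, 1.40, 1.27 and 1.35, with the largest FDR at 1.22e-06. The fitted value of a gene with no reads before IFNγ depends on the pseudocount.

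**Figure D2:**
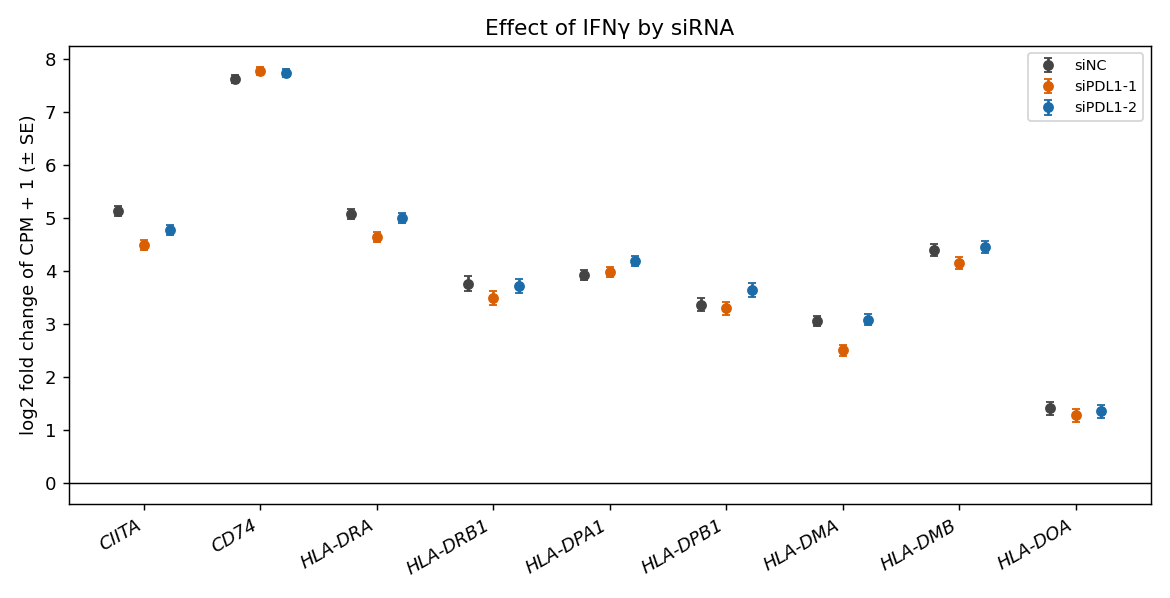
Log2 fold change of CPM plus 1 between IFNγ and unstimulated cells (vertical axis, bars ± SE) for the 9 tested class II genes and each siRNA (colour). *CD74* stands highest, between 7.62 and 7.77, and *HLA-DOA* lowest, between 1.27 and 1.40.

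To compare levels between genes, CPM in siNC cells after IFNγ were divided by the length of each gene's main transcript. *CD74* led with 148 ± 6.57 CPM per kb (SD, n = 2), followed by *HLA-DRA* with 27.9, *HLA-DMA* with 22.6, *HLA-DMB* with 19.6, *HLA-DPA1* with 16.95 and *HLA-DRB1* with 14.55. *CIITA* came to 6.58, *HLA-DPB1* to 3.04, *HLA-DOA* to 0.477 and *HLA-DQA1* to 0.0931 CPM per kb. No neighbours in this order had overlapping values, with 2 libraries each. The order of the middle genes depends on the length used. Per kb of coding length *HLA-DPA1* (37.0) followed *HLA-DRA* (45.1) and preceded *HLA-DMB* (33.5), *HLA-DMA* (31.6) and *CIITA* (31.2), because the transcript of *CIITA* is 16061 bases long with a coding part of 3390 bases. *CD74* and *HLA-DRA* led and *HLA-DOA* and *HLA-DQA1* came last by either length.

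After IFNγ, the siPDL1-1 cells had lower *CIITA*, *HLA-DRA* and *HLA-DMB* than siNC cells, by less than the fold change required. *CIITA* differed by -0.51 ± 0.070 (log2 fold change ± SE, 95% interval -0.66 to -0.35, FDR 0.000405), *HLA-DRA* by -0.50 ± 0.071 (FDR 0.000454) and *HLA-DMB* by -0.42 ± 0.080 (FDR 0.00275). All 9 estimates were below 0, with a median of -0.23 against -0.01 over all genes tested. None of the 9 was called by limma, edgeR or DESeq2, where limma called 5.52% of all genes tested. Without the fold requirement, the 3 genes just named passed FDR below 0.01, as did 15.7% of all genes tested. An unadjusted p below 0.05 was reached by 5 of the 9, all of them lower, and by 39.6% of all genes. *HLA-DMA* stood at -0.26 (FDR 0.0339), *HLA-DRB1* at -0.23 (FDR 0.152), *HLA-DPA1* at -0.16 (FDR 0.122), *HLA-DPB1* at -0.13 (FDR 0.377) and *HLA-DOA* at -0.13 (FDR 0.547). *CD74* stood at -0.01 (95% interval -0.14 to 0.12, FDR 0.922).

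The balance between *CD74* and its coactivator moved with this. The ratio of *CD74* to *CIITA* CPM was 2.34 and 2.30 in the siNC libraries, 3.30 and 3.27 with siPDL1-1 and 2.43 and 2.87 with siPDL1-2. The ratio was therefore highest in the siPDL1-1 libraries, with no overlap. *CD74* made up 49.9% and 48.7% of the summed class II CPM with siNC, 56.5% and 55.4% with siPDL1-1 and 49.1% and 50.2% with siPDL1-2. The ratio of *HLA-DRA* to *CIITA* did not separate the groups, at 0.316 and 0.336 with siNC, 0.317 and 0.331 with siPDL1-1 and 0.313 and 0.363 with siPDL1-2. The ratio of *HLA-DMA* to *HLA-DMB*, per kb of coding length, was 0.960 and 0.924 with siNC, 1.08 and 1.05 with siPDL1-1 and 1.18 and 1.20 with siPDL1-2. It was lowest in the siNC libraries and highest with siPDL1-2, without overlap. These ratios were set up after the values were known and carry no test.

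With siPDL1-2 the class II genes moved in both directions relative to siNC, none past the threshold. *HLA-DPB1* (0.23, FDR 0.119), *HLA-DMA* (0.21, FDR 0.0784) and *HLA-DPA1* (0.21, FDR 0.0608) had estimates above 0. *CIITA* (-0.21, FDR 0.0571), *HLA-DRA* (-0.15, FDR 0.146) and *HLA-DMB* (-0.11, FDR 0.350) had estimates below 0, and *CD74* was at -0.02 (95% interval -0.15 to 0.11). No gene of the 9 was called by limma, edgeR or DESeq2, against 2.91% of all genes called by limma. The count at an unadjusted p below 0.05 was 4, of which 3 were higher, and 35.8% of all genes reached it. The median was -0.02, and it was -0.01 over all genes tested.

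The 2 siRNAs were then set against each other. Of the 9 genes, 8 had lower estimates with siPDL1-1 than with siPDL1-2, with a median of -0.35 against 0.00 over all genes tested. *HLA-DMA* (-0.47 ± 0.079, FDR 0.00357), *HLA-DPA1* (-0.37 ± 0.072, FDR 0.00809) and *HLA-DRA* (-0.35 ± 0.071, FDR 0.00968) passed the FDR without reaching the fold change of 1.5, where 4.84% of all genes passed the FDR with no fold change required. *CIITA* stood at -0.30 (FDR 0.0197), *HLA-DMB* at -0.31 (FDR 0.0298), *HLA-DPB1* at -0.36 (FDR 0.0410) and *HLA-DRB1* at -0.36 (FDR 0.0675). *CD74*, at 0.01 (95% interval -0.12 to 0.14), and *HLA-DOA*, at -0.08, showed the smallest differences. No gene of the 9 was called by limma, edgeR or DESeq2, where limma called 2.11% of all genes. An unadjusted p below 0.05 was reached by 7 of the 9 and by 26.2% of all genes.

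With both siRNAs as 1 group of 4 libraries against the 2 siNC libraries, *CIITA* stood at -0.36 (FDR 0.0624), *HLA-DRA* at -0.33 (FDR 0.102) and *HLA-DMB* at -0.27 (FDR 0.160). The other 6 genes lay between -0.09 and 0.05. None was called by limma, edgeR or DESeq2, where limma called 1.74% of all genes. An unadjusted p below 0.05 was reached by 3 of the 9 and by 29.6% of all genes.

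**Figure D3:**
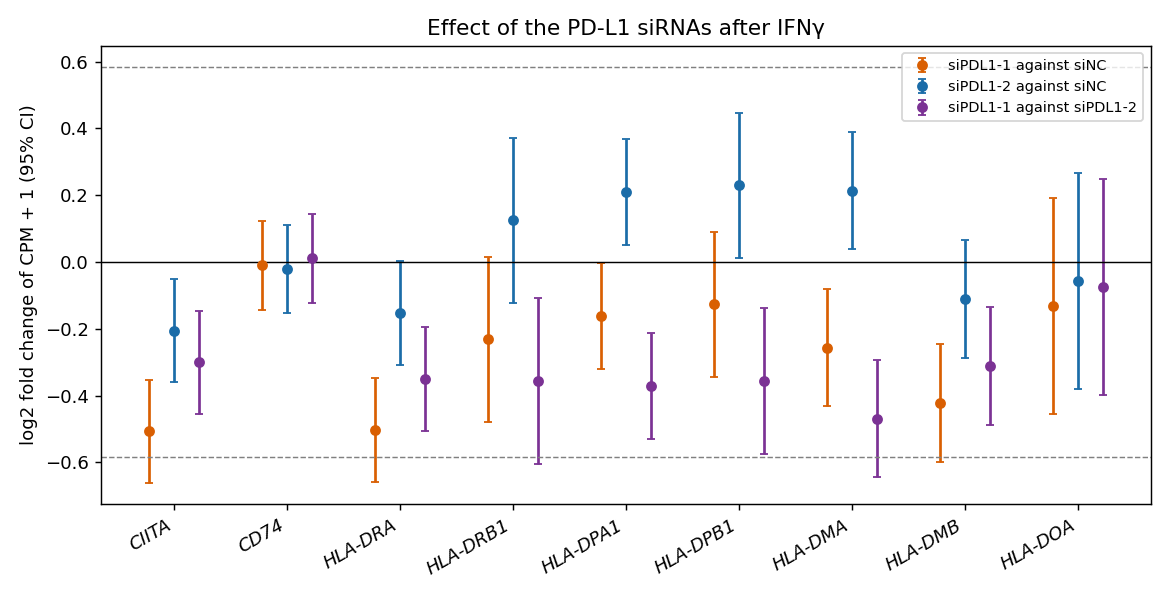
Log2 fold change of CPM plus 1 after IFNγ (vertical axis, bars 95% confidence intervals) for the 9 tested class II genes, with siPDL1-1 against siNC, siPDL1-2 against siNC and siPDL1-1 against siPDL1-2 in separate colours and dashed lines at a fold change of 1.5. Every point lies inside the dashed lines, and *CIITA*, *HLA-DRA* and *HLA-DMB* with siPDL1-1 come closest among the comparisons with siNC.

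Before IFNγ the siRNAs gave no called difference in any of the 9 genes by limma, edgeR or DESeq2. Of all genes, limma called 4.00% for siPDL1-1 against siNC, 6.17% for siPDL1-2 against siNC and 4.35% between the siRNAs. The count of the 9 at an unadjusted p below 0.05 was 2, 0 and 0, where 38.9%, 48.2% and 44.7% of all genes reached it. These 2 were *HLA-DMA*, with an estimate of 0.29 (FDR 0.0363) for siPDL1-1, and *HLA-DPA1*, with -0.22 (FDR 0.0995). At such low levels small differences were not detectable: *CD74* rested on 9 to 16 reads in a group and *HLA-DOA* on none.

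Whether the siRNA effect differed between stimulated and unstimulated cells was tested as an interaction. For siPDL1-1 the interaction was -0.65 ± 0.13 for *CIITA* (95% interval -0.93 to -0.36, FDR 0.0120), -0.55 for *HLA-DMA* (FDR 0.0452) and -0.43 for *HLA-DRA* (FDR 0.103). For siPDL1-2 it was -0.35 for *CIITA* (FDR 0.0575), 0.26 for *HLA-DPA1* (FDR 0.159) and 0.28 for *HLA-DPB1* (FDR 0.264). None of the 9 was called by limma, edgeR or DESeq2 for either siRNA, where limma called 0.968% and 7.62% of all genes, and 3 and 1 had an unadjusted p below 0.05, which 15.5% and 39.6% of all genes reached. *CIITA* was called for siPDL1-1 (-0.79, FDR 0.00218) when siNC unstimulated replicate 2 was left out. The *HLA-DRA* interaction turned to 0.06 with a pseudocount of 0.1, since the gene had no reads before IFNγ with siPDL1-1.

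Other class II genes were read beside these. The list held 12 genes and pseudogenes, of which 6 were in the table and 4 could be tested. *HLA-DRB5*, a further DR beta chain, rose from 0.0743 ± 0.0335 CPM (SD, n = 2) to 1.93 ± 0.000685 CPM in siNC cells (log2 fold change 1.45), *HLA-DQB1*, the DQ beta chain, from 0.123 ± 0.103 to 1.435 ± 0.063 CPM (1.12) and *HLA-DOB*, the beta chain of HLA-DO, from 0.485 ± 0.00625 to 2.26 ± 0.595 CPM (1.12). These 3 were called higher, where 6.67% of all genes tested were, while *HLA-DQB2* (0.39) was not. *HLA-DRB5* and *HLA-DQB1* had at most 9 reads in any unstimulated group. Both entered the test through their IFNγ libraries and so had to be higher there, which makes their calls a description. *HLA-DQA2* and *HLA-DQB1-AS1* had at most 3 reads in any group. *HLA-DOB* was the 1 gene of the 4 called with siPDL1-1 after IFNγ, where limma called 5.52% of all genes, at 4.28 and 3.90 CPM against 1.84 and 2.68 CPM with siNC (0.66 ± 0.15, FDR 0.00696). Before IFNγ *HLA-DOB* already read 0.928 and 1.06 CPM with siPDL1-1 against 0.490 and 0.481 CPM with siNC (0.42, FDR 0.0405, not called). The ratio after to before IFNγ was 4.12-fold with siPDL1-1 and 4.65-fold with siNC, and the interaction was 0.23 (FDR 0.653). After IFNγ the siPDL1-1 libraries had the highest *HLA-DOB*, without overlap, where they had the lowest *HLA-DMA* and *HLA-DMB*. HLA-DO is made of *HLA-DOA* and *HLA-DOB*, and *HLA-DOA* did not follow.

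The route from IFNγ to *CIITA* was measured with 10 genes. In siNC cells, 6.67% of all genes tested were called higher by IFNγ. Of the 10, 6 were called higher there and none lower. Among them were *IRF1* (4.85), *SOCS1* (2.61), *JAK2* (2.03), *USF1* (1.01) and *SOCS3* (0.81), the SOCS genes being feedback inhibitors. *IRF1*, a transcription factor that acts on the IFNγ-responsive *CIITA* promoter, stood at 549 and 531 CPM with siNC after IFNγ, at 361 and 337 CPM with siPDL1-1 and at 369 and 396 CPM with siPDL1-2. Both siPDL1 groups lay below siNC without overlap, and *IRF1* was called lower with siPDL1-1 (-0.63, FDR 2.83e-05), while siPDL1-2 gave -0.50 (FDR 0.000382), short of the fold change. *SOCS1* was higher with siPDL1-1, at 26.6 and 26.4 CPM against 8.18 and 7.14 CPM with siNC (1.67, FDR 1.10e-06), as was *JAK2* (0.67, FDR 8.92e-05). Already before IFNγ the group means of *JAK2* were 22.3 CPM with siPDL1-1 and 26.2 CPM with siPDL1-2 against 14.75 CPM with siNC. The remaining genes of the list were not called with either siRNA.

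Of the 7 genes of the promoter complex, *RFX5* (0.70) and *CREB1* (0.70) were called higher by IFNγ in siNC cells, and none was called with either siRNA after IFNγ. Of all genes tested, 6.67% were called higher by IFNγ in siNC cells. After IFNγ, 5.52% were called in either direction with siPDL1-1 and 2.91% with siPDL1-2 against siNC. Of 12 coactivators and repressors, *PRDM1* (0.73), a repressor of *CIITA* in plasma cells, and *KAT2B* (0.61), an acetyltransferase, were called higher by IFNγ in siNC cells, and both also with siPDL1-1 (0.68 and 0.67) but not with siPDL1-2 (0.12 and 0.23). After IFNγ *PRDM1* was called lower with siPDL1-2 than with siNC (-0.68, FDR 0.00157).

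Of 10 genes for endosomal processing, IFNγ raised in siNC cells *CTSS* (3.64), the cathepsin that makes the last cut of the invariant chain, and *IFI30* (2.76), a thiol reductase that opens antigens. The share of all genes tested that was called higher there was 6.67%. *CTSS* stood at 20.3 and 20.1 CPM with siNC after IFNγ, at 11.5 and 11.0 CPM with siPDL1-1 and at 10.6 and 9.29 CPM with siPDL1-2. It was called lower with siPDL1-1 (-0.79, FDR 0.000150) and with siPDL1-2 (-0.96, FDR 0.000144), both against the same siNC pair. *LGMN*, an asparagine endopeptidase, was called higher with siPDL1-1 (0.61) and *CTSD*, an aspartic protease, with siPDL1-2 (0.65). Both also lay above siNC with the other siRNA, without a call. *CTSD* read 786 and 723 CPM with siPDL1-1 against 540 and 471 CPM with siNC. Its group means before IFNγ were already 761 CPM with siPDL1-1 and 668 CPM with siPDL1-2 against 533 CPM with siNC. *LGMN* read 103 and 106 CPM with siPDL1-2 against 87.3 and 88.4 CPM with siNC. Of 9 genes for trafficking, turnover and CD74 partners, none was called by IFNγ in siNC or siPDL1-1 cells. In these arms 6.67% and 5.58% of all genes tested were called higher. With siPDL1-2, IFNγ lowered *MARCHF1* (-0.75), a ubiquitin ligase that marks class II for turnover, and *CXCR4* (-0.65), a chemokine receptor that partners CD74. *MARCHF1* had a higher start with siPDL1-2, with a group mean of 11.2 CPM before IFNγ against 6.82 CPM with siNC, and read 6.34 CPM after IFNγ. *CXCR4* was low and its group means fell in all arms. They went from 0.732 to 0.383 CPM with siNC, from 0.945 to 0.349 CPM with siPDL1-1 and from 0.925 to 0.244 CPM with siPDL1-2. *CD82*, a tetraspanin of class II compartments, was called higher with siPDL1-1 than with siNC after IFNγ (0.92). Its group mean before IFNγ was already 76.4 CPM with siPDL1-1 against 50.9 CPM with siNC.

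Of 7 surface genes for T cell contact, 4 could be tested. *CD40* (1.39) and *ICAM1* (1.28) were called higher by IFNγ in siNC cells, where 6.67% of all genes tested were. They reached 1.68 ± 0.087 and 1.72 ± 0.501 CPM (SD, n = 2) in siNC cells. Before IFNγ neither read above 0.359 CPM in any library. Both entered the test through their IFNγ libraries and so had to be higher there, which makes their calls a description. *CD80* and *CD86*, the ligands of CD28, stayed at or below 0.0197 CPM as group means. All 9 genes of the class I and butyrophilin list were called higher by IFNγ in siNC cells, where 6.67% of all genes tested were. They were led by *TAP1* (4.64), a peptide transporter chain, *HLA-B* (3.76), a class I heavy chain, *NLRC5* (3.30), the class I counterpart of *CIITA*, and *HLA-E* (2.88), a non-classical heavy chain. None of these 9 was called with siPDL1-1 or siPDL1-2 after IFNγ, where 5.52% and 2.91% of all genes were.

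**Figure D4:**
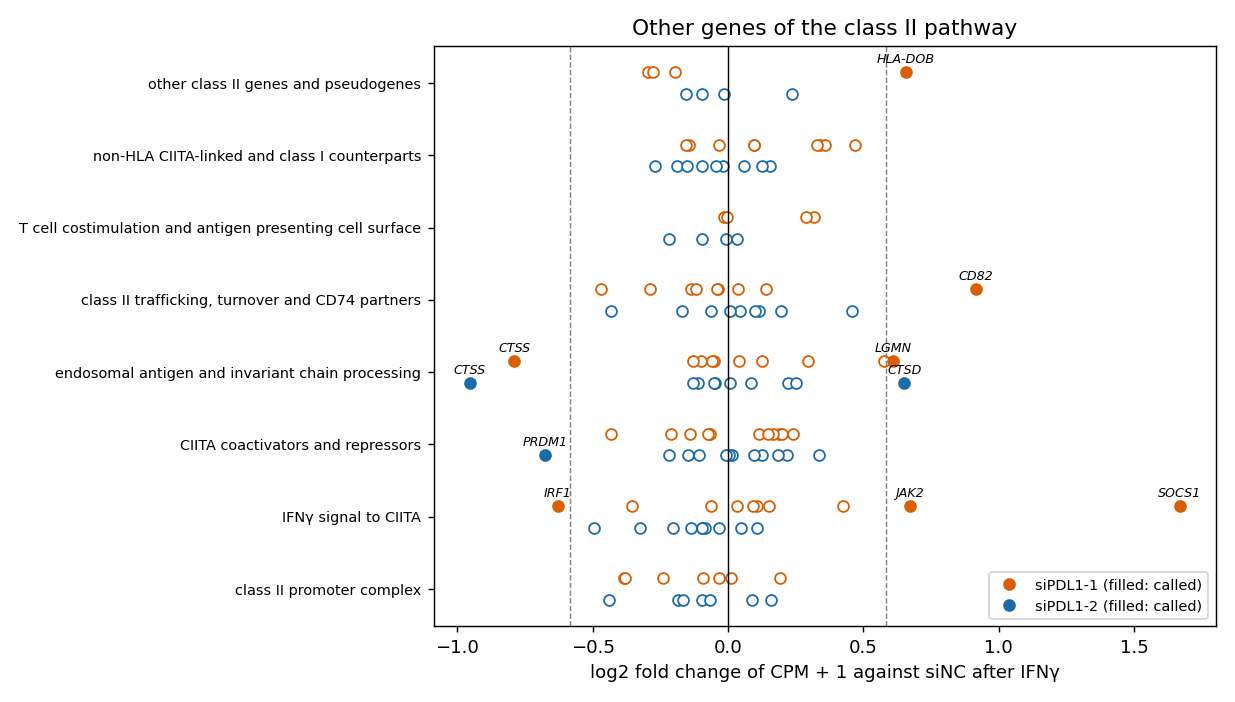
Log2 fold change of CPM plus 1 against siNC after IFNγ (horizontal axis) for the tested genes of 8 lists (rows), with siPDL1-1 in orange and siPDL1-2 in blue, filled points for called genes and dashed lines at a fold change of 1.5. *CTSS* is filled with both siRNAs, and *SOCS1* with siPDL1-1 lies farthest from 0, at 1.67.

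The response of 22 genes typical of type I interferon moved with siPDL1-1. Against unstimulated cells, IFNγ raised 19 of them in siNC cells (median 2.19), where 6.67% of all genes tested were called higher. The counts were 20 with siPDL1-1 (median 4.82, against 5.58%) and 18 with siPDL1-2 (median 2.27, against 3.62%). Members of the list with few reads before IFNγ, *RSAD2* among them, entered this test through their IFNγ libraries and so had to be higher there. Of 22 genes typical of type I interferon, 20 were called higher with siPDL1-1 than with siNC after IFNγ (median 3.12), led by *MX2* (4.79), *OAS2* (4.34), *OAS1* (4.30) and *RSAD2* (4.10), and 2 with siPDL1-2 (median 0.00), against 5.52% and 2.91% of all genes called in either direction. Before IFNγ 12 of the 22 were already called higher with siPDL1-1 than with siNC (median 0.65), against 4.00% of all genes called in either direction. After IFNγ the 9 tested class II genes had estimates below 0 with siPDL1-1, but none was called and *CD74* stood at -0.01. *HLA-DOB*, outside those 9, was called higher. The part of the type I interferon response in the *CIITA*, *HLA-DRA* and *HLA-DMB* values was not tested.

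The genes whose pattern over the 12 libraries lay closest to 3 of these genes were found from the root mean square difference of log2 of CPM plus 1, each gene centred on its own mean. Closest to *CIITA* were *WARS1* (0.151), *GBP5* (0.219), *GBP2* (0.229), *IRF1* (0.242) and *CXCL9* (0.289). Among the same genes, closest to *HLA-DRA* were *IRF1* (0.195), *GBP5* (0.198), *WARS1* (0.204), *GBP2* (0.229) and *PSMB9* (0.235). The genes closest to *CD74* lay farther off, with *GBP4* at 0.289, *IDO1* at 0.431, *CXCL10* at 0.663, *APOL1* at 0.787 and *PLAAT4* at 0.802. The values were not scaled to the size of the rise, which was largest for *CD74*. A larger distance therefore does not show a more unusual pattern.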

How the data were processed

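Poly(A) RNA of U251 cells was sequenced as 12 libraries, 2 per condition, from a stranded kit per the labels. The study's methods state that the libraries came from separate experiments. The labels do not say whether replicates are separate cultures, so p-values measure the spread between these libraries. Reads were trimmed, mapped to GRCh38 with at most 10 hits per read and counted on both strands in CLC Genomics Workbench by the authors. The signal values deposited by the authors are normalized CPM, 1 column per library, whose columns do not sum to exactly the same total. In every library 100% of values were whole multiples of 1 read (tolerance 0.05), and reads were recovered from them.

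Genes were kept with filterByExpr on recovered reads (minimum count 10, minimum total 15). limma 3.58.1 (trend, robust) in R 4.3.3 was fitted on log2(CPM + 1), with Benjamini-Hochberg FDR below 0.01 and fold change above 1.5 as the call. IFNγ effects, unstimulated cells and interactions came from all 12 libraries (17982 genes), and siRNA effects after IFNγ from the 6 stimulated libraries (17148 genes). Alternatives used edgeR 4.0.16 and DESeq2 1.42.0 on the recovered reads, other pseudocounts, filters, thresholds and size factors, a replicate block, and left-out libraries. The fits were tested on simulated data.

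Plain folds are ratios of mean CPM. Where a group had no reads, the bound used 3 reads per library. Intervals at 95% cover counting error only. Gene positions and lengths came from the GENCODE annotation of GRCh38 and promoters from RefSeq. The word length and mismatches of the promoter search were set after the windows were read. The 10 genes and all gene lists were chosen with earlier results of these data known. Named genes were the 10 genes, *CD274*, the called genes of each list (at most 4 per comparison) and the other class II genes. Also named were the 5 genes outside the 10 with the closest patterns to *CIITA*, *CD74* and *HLA-DRA*. Other genes named were chosen after their values were seen. The values of 1 listed gene are not reported here.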

Additional observations from a re-analysis of the deposited data

Results flagged for a closer look

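After IFNγ, 3 class II genes differed between the siRNAs at an FDR below 0.01 in the limma test of the difference itself, without reaching a fold change of 1.5, and 4.84% of all genes tested passed that FDR with no fold requirement. *HLA-DMA* was lower with siPDL1-1 than with siPDL1-2 by a log2 fold change of -0.47 (FDR 0.00357), *HLA-DPA1* by -0.37 (FDR 0.00809) and *HLA-DRA* by -0.35 (FDR 0.00968). In each both siPDL1-1 libraries lay below both siPDL1-2 libraries, which adds no support for genes picked by this FDR.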

How the results depend on the processing

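The 9 genes were called higher by IFNγ in each arm under all alternatives run: 360 alternative values of called results, with 0 changes of sign and 0 lost calls. For 4 of the 9 (*CD74*, *HLA-DRA*, *HLA-DMB* and *HLA-DOA*) this is no support. They entered the test through their IFNγ libraries and so had to be higher there. Of 1112 alternative values of results not called, 73 changed sign, none of them called, and 9 gained a call. The count of called genes moved from 0 in 5 cases. With FDR below 0.05 the siPDL1-1 interaction gave 1 (*CIITA*), and over the left-out libraries it ran from 0 to 1, with 1 (*CIITA*) without siNC unstimulated replicate 2. With a pseudocount of 0.1, siPDL1-1 against siNC in unstimulated cells gave 1 (*CD74*). Without the fold requirement, siPDL1-1 gave 3 against siNC and 3 against siPDL1-2 after IFNγ. The siPDL1-1 interaction of *HLA-DRA*, which had no reads before IFNγ with siPDL1-1, reversed to 0.0644 with a pseudocount of 0.1, 3.38 with edgeR and 2.90 with DESeq2, none called. The difference of *CD74* from siNC after IFNγ changed sign around 0: with siPDL1-1 to 0.0011 with DESeq2 size factors and 0.0021 with the DESeq2 test. Over left-out libraries it ran from -0.0569 to 0.0366 with siPDL1-1, above 0 without siNC IFNγ replicate 1 (0.0348) or siPDL1-1 IFNγ replicate 2, and from -0.0657 to 0.0243 with siPDL1-2, above 0 without siNC IFNγ replicate 1 or siPDL1-2 IFNγ replicate 1 (0.0171). The cause was not tested. Replicate numbers did not pair the samples (correlations of replicate differences -0.132 to 0.193). With the replicate block the 9 genes were called in each IFNγ comparison and 0 in the others, and a crossed block in siNC, chosen after seeing the data, gave 9. Few reads limited what could be seen of *HLA-DQA1* and *HLA-DOA*, and the part of depth in this was not tested.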
